A study of Cynara cardunculus with 12 samples.

Results

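The genes numbered Ccrd_009015 to Ccrd_010721 form a run along the cardoon gene identifiers in which most transcripts were less abundant in 3 callus lines that overexpress AtMYB4 than in wild-type (WT) callus. Its members were chosen by their measured log2 ratios to WT, from a scan of medians along the identifiers. Its lowering against WT is therefore a description here and carries no test. Contrasts between lines were not themselves used to find it. They use the same line samples, so they are not independent of the choice. The rule takes all identifiers in this range except 5 that it leaves out, and it gave 1684 of the 26505 genes in the count table. Of these, 1462 had at least 1 count, and 1262 passed the filter on low counts and were among the 20024 genes tested. A total of 222 members had no count in any sample and 200 had counts but were not tested. Medians were taken over the 825 members with a mean log2 CPM (counts scaled to the library total) of 3 or more, and 437 tested members lay below that level.

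Cardoon (Cynara cardunculus var. altilis) is a thistle of the sunflower family, and friable callus is a loose tissue of dividing, undifferentiated cells, here started from leaves of the genotype Spagnolo. AtMYB4 is an R2R3-type MYB transcription factor of Arabidopsis thaliana, known there as a repressor of phenylpropanoid genes, and the constitutive CaMV35S promoter drove it in the lines L1, L18 and L24. WT callus (sub-culture 22) carried no construct. The lines (sub-culture 14) are independent by the study's account, L1 and L24 from infection with the Agrobacterium strain AGL1 and L18 with EHA105. They were kept on the selective agents PPT and cefotaxime. Strain cannot be told apart from line where L18 is compared with L1 or L24. RNA was taken in triplicate from 1 WT culture and from each line, 12 samples in 4 groups, so that p-values measure the spread within a culture. No line with an empty vector is among the samples. Transformation, selection and culture age therefore cannot be told apart from the transgene in any comparison with WT. The transgene itself is not a cardoon gene of the table, so its level was not checked here. By RT-qPCR the study found most of its transcript in L18 and least in L1. Whether the size of the lowering follows that level was not tested.

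Identifiers of this annotation follow the order of genes along each scaffold, so that genes with neighbouring numbers mostly lie side by side. The members sat on 347 scaffolds, of which 42 held at least 5 members with a mean log2 CPM of 3 or more. The amount of a transcript in a bulk sample depends on how many copies of its gene the cells carry, on how actively each copy is transcribed and on how long the transcript lasts. A count table does not separate these, and in bulk callus fewer cells of a type and less RNA per cell cannot be told apart.

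The members held a smaller share of the transcriptome in every line than in WT. They took 5.38%, 5.58% and 5.66% of all counts in the WT samples, 3.49%, 3.59% and 3.40% in L1, 4.17%, 4.41% and 4.27% in L18, and 4.27%, 4.00% and 4.30% in L24. No line sample reached the lowest WT sample, and every L1 sample lay below every sample of L18 and L24, while L18 and L24 overlapped. The mean share was 5.54% ± 0.14 (SD, n = 3) in WT, 3.49% ± 0.10 (L1), 4.28% ± 0.12 (L18) and 4.19% ± 0.17 (L24). These shares need no scaling between samples.

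On the scale of single genes, the measure was the log2 ratio of TMM-scaled CPM (with 0.5 CPM added) to the mean of the WT replicates. The run median in L1 was -0.74, -0.66 and -0.76, or 0.60, 0.634 and 0.590 times the WT mean. In L18 it was -0.45, -0.42 and -0.43, or 0.731, 0.749 and 0.745 times, and in L24 it was -0.43, -0.55 and -0.49, or 0.740, 0.682 and 0.710 times. L1 was again the lowest in all 3 samples, and the ranges of L18 and L24 overlapped. The medians of the 12758 genes outside the run lay between -0.03 and 0.02 in every sample. The shift was broad rather than carried by a few genes, since on average 86.2% of the 825 members lay below the WT mean in L1, 80.4% in L18 and 78.7% in L24, against 48.5% to 51.9% of the genes outside the run in the line samples. By fitted log2 fold change, 464 of the 825 lay below WT by less than 2-fold in L1, 252 by 2-fold or more and 109 above WT. The same numbers were 581, 84 and 160 in L18 and 528, 130 and 167 in L24.

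**Figure D1:**
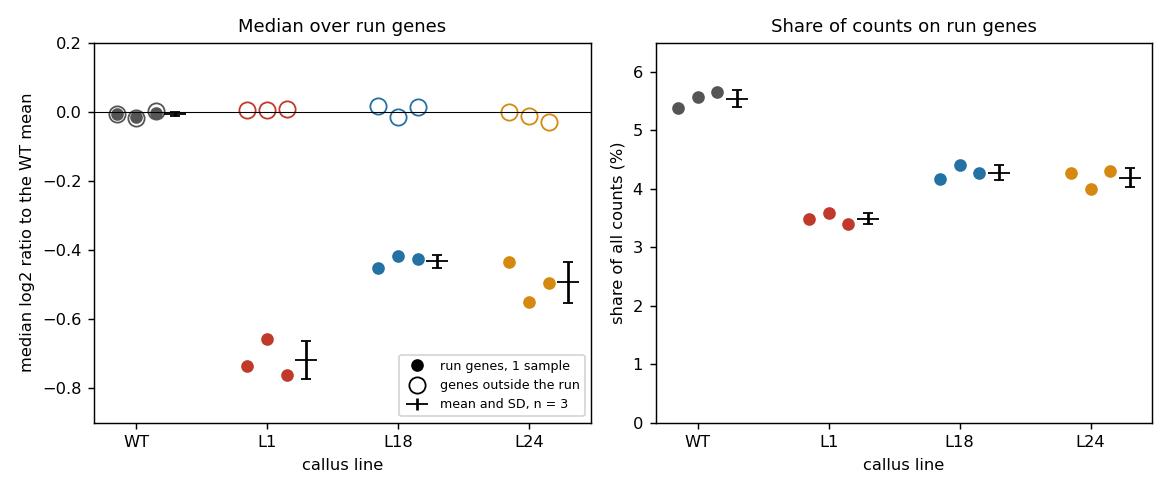
Left, median log2 ratio to the WT mean per sample over the 825 run genes (filled points) and over genes outside the run (open points), with the mean and SD of 3 samples beside them; right, the percent of all counts on the 1684 run genes, on an axis from 0. The L1 samples sit between -0.76 and -0.66 and between 3.40% and 3.59%, below every sample of L18 and L24.

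A gene was called at an adjusted p of 0.05 or less by edgeR's quasi-likelihood F test over the 20024 genes, and the counts against WT are given beside the share of all genes called without reading anything from them, because these contrasts chose the run. In L1, 700 members (55.5% of 1262) were called lower than WT, where 20.4% of all genes were, and 59 were called higher (19.3% of all genes). In L18, 443 were lower (12.8% of all genes) and 57 higher (12.5% of all genes). In L24, 517 were lower (20.7% of all genes) and 92 higher (19.3% of all genes). All 3 lines were lower at 273 members (6.27% of all genes) and higher at 14 (5.01% of all genes). At 385 members every line replicate lay below every WT replicate in normalized counts, as at 9.75% of all genes, and at 17 every one lay above, as at 7.24% of all genes. No line was called at 315 members (40.8% of all genes). Without WT replicate 2, the 57 members higher in L18 fell to 37 and the 14 higher in all lines to 9.

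At both ends the medians of L1 and L24 stepped across 0, and those of L18 did so less. The ends were set by the scan of such medians, so a step there is built in and is only described. Among the 20 genes just before the first member (Ccrd_008977 to Ccrd_009012, mean log2 CPM of 3 or more), the medians were 0.19 ± 0.07 for L1, -0.18 ± 0.00 for L18 and 0.26 ± 0.09 for L24 (SD, n = 3). The first 20 members (Ccrd_009015 to Ccrd_009050) stood at -0.32 ± 0.03, -0.57 ± 0.07 and -0.36 ± 0.06. The last 20 members (Ccrd_010695 to Ccrd_010721) stood at -0.66 ± 0.06 (L1), -0.19 ± 0.11 (L18) and -0.62 ± 0.14 (L24), and the 20 genes after them (Ccrd_010729 to Ccrd_010763) at 0.25 ± 0.08, 0.01 ± 0.19 and 0.21 ± 0.26. In L18 the genes before the run already lay below WT, and its step at the far end was smaller than in the other lines.

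The order of the lines was another one in a second lowered run. A lowered run elsewhere in the identifiers, Ccrd_005090 to Ccrd_005894, had mean medians of -0.57 (L1), -0.49 (L18) and -0.90 (L24), with L24 the lowest there. The raised runs Ccrd_000003 to Ccrd_000765 (0.50, 0.39 and 0.47) and Ccrd_005895 to Ccrd_006688 (0.35, 0.20 and 0.29) lay above WT in all lines. By these means L1 shifted most and L18 least in both raised runs, as in the run described here. These runs were found by the same scan, and the differences between them were not tested.

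The size of the lowering changed along the run, and did so differently in each line. In consecutive blocks of 50 members, the L1 median ranged from -0.40 in block 1 to -1.04 in block 4 (Ccrd_009312 to Ccrd_009390). The L18 median ranged from -0.72 in block 6 to -0.06 in block 15 (Ccrd_010484 to Ccrd_010569), where 1 L18 sample lay above 0. The L24 median ranged from -0.80 in block 16 (Ccrd_010571 to Ccrd_010677) to -0.20 in block 10 (Ccrd_009879 to Ccrd_009965). In the first 3 blocks the medians of the 3 lines lay between -0.40 and -0.59, and in block 1 every L18 sample lay below every L1 sample. From block 4 to block 13 L1 was the lowest except in block 6, and in the last 4 blocks both L1 and L24 lay below L18.

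**Figure D2:**
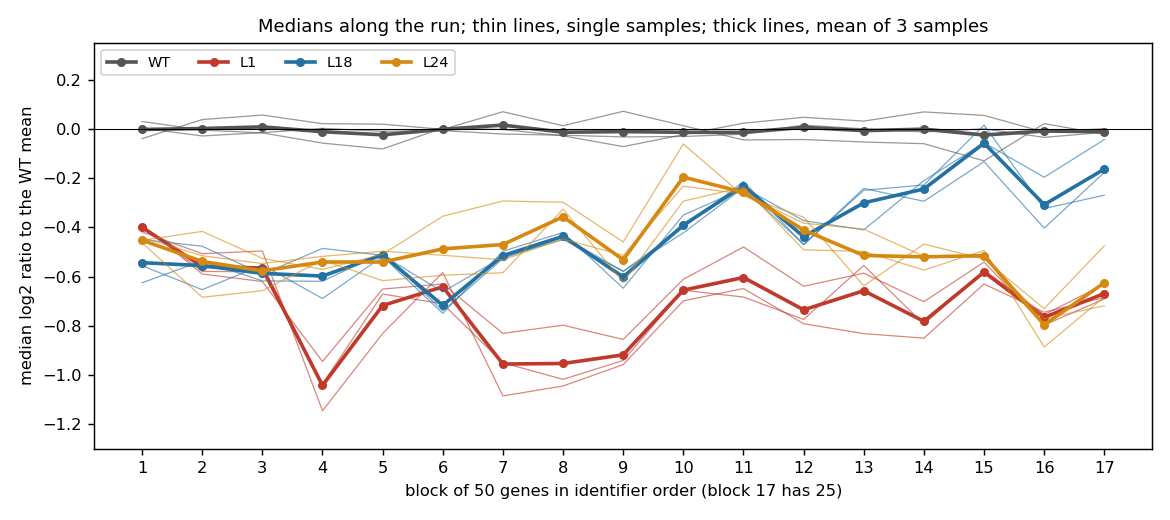
Median log2 ratio to the WT mean (vertical axis) in 17 consecutive blocks of 50 run genes in identifier order (the last has 25), with a thin line for each sample and a thick line for the mean of the 3 samples of a group. L1 reaches -1.04 in block 4, L18 rises to -0.06 in block 15, and L24 falls to -0.80 in block 16.

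Contrasts between lines leave out WT and were not themselves used to choose the run. They share the line samples whose ratios to WT chose it. The counts are therefore not independent of that choice and are given as a description. L1 was lower than L18 at 400 members (31.7%), where 16.9% of all genes were called, and higher at 115 (9.11%), where 16.1% of all genes were. L1 was lower than L24 at 276 members (21.9%; 9.73% of all genes) and higher at 51 (4.04%; 10.8% of all genes). The count of members lower in L1 than in L24 rested partly on single libraries, since without L1 replicate 1 L1 was lower than L24 at 182 members and without L24 replicate 3 at 181. Between L24 and L18 the members were called about as often as all genes, with 206 lower in L24 (16.3%; 16.4% of all genes) and 166 higher (13.2%; 14.3% of all genes). The median log2 fold change of the members was -0.29 for L1 against L18, -0.24 for L1 against L24 and -0.01 for L24 against L18, against medians from 0.00 to 0.01 over all genes tested.

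The balance between L24 and L18 was not even along the run. After seeing the block medians, the 825 members were divided at Ccrd_009310 and Ccrd_010339, and the calls between lines were counted in each stretch, with no test of the stretches themselves. In the first 150 members, L1 was lower than L18 at 23 (15.3%) and higher at 19 (12.7%), close to the 18.5% and 15.8% of all genes of the same level. In the next 500 members, L1 was lower than L18 at 190 (38%) and than L24 at 179 (35.8%; 10.4% of all genes of this level), while L24 was lower than L18 at 65 (13.0%; 18.6% of all genes of this level). In the last 175 members, L1 was lower than L18 at 99 (56.6%) and L24 lower than L18 at 78 (44.6%), while L1 was lower than L24 at 25 (14.3%) and higher at 12. Without L24 replicate 3, the 25 fell to 16 and the 12 to 7. The counts in the last stretch ranged from 83 to 101 for L1 below L18 and from 68 to 83 for L24 below L18 when each sample was left out in turn. In the middle stretch, the 179 members of L1 below L24 fell to 120 without L1 replicate 1. In the first stretch, the 23 members of L1 below L18 fell to 12 without L1 replicate 1.

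**Figure D3:**
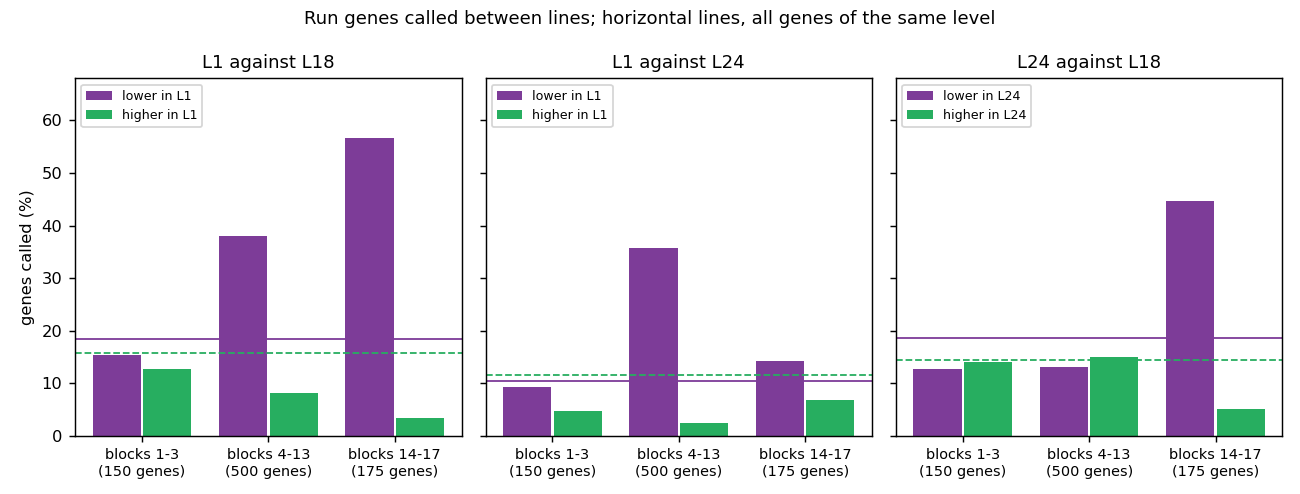
Percent of run genes called lower or higher between 2 lines (edgeR, adjusted p of 0.05 or less) in blocks 1 to 3, 4 to 13 and 14 to 17; solid and dashed horizontal lines mark the percent of all genes of mean log2 CPM of 3 or more called lower and higher. L24 is lower than L18 at 44.6% of the genes of the last stretch, against 12.7% and 13.0% in the other stretches.

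The medians by scaffold are only described, since the run was chosen by such ratios. In 40 of the 42 scaffolds with at least 5 members of mean log2 CPM of 3 or more, the medians of all 3 L1 samples lay below those of all WT samples, as did 29.3% of the 730 scaffolds of the whole table. The same held in 35 scaffolds for L18 (23% of all scaffolds) and in 33 for L24 (29% of all scaffolds). Between lines, all L1 samples lay below all L18 samples in 23 of the 42 scaffolds (26% of all scaffolds) and above them in 8 (22.7% of all scaffolds). All L1 samples lay below all L24 samples in 18 (17.8% of all scaffolds) and above them in 3 (21.8% of all scaffolds). L24 and L18 each lay below the other in 8 (25.6% and 20.8% of all scaffolds).

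Scaffold 19 (689 to 905800 of the genome CcrdV1, 84 members, Ccrd_009339 to Ccrd_009420) showed the deepest L1 values of the larger scaffolds. Over its 47 members with a mean log2 CPM of 3 or more, the L1 samples had medians of -1.39, -1.02 and -1.34, the L18 samples -0.54, -0.50 and -0.58, and the L24 samples -0.54, -0.53 and -0.46. L18 and L24 overlapped at about the same level there, and L1 lay below both in every sample. L1 was called lower than L18 at 29 of the 47 genes (18.5% of all genes of this level) and higher at 1 (15.8%). It was lower than L24 at 31 (10.4% of all genes of this level) and higher at 0 (11.6%). Without L1 replicate 1 the 31 fell to 19. Scaffold 19 was singled out for its low L1 values, so nothing is read from these counts. Next by identifier, scaffold 1028 (Ccrd_009422 to Ccrd_009432, 7 genes) stood at -1.03 ± 0.17 (L1), -0.87 ± 0.19 (L18) and -0.79 ± 0.11 (L24), with overlap between the lines. Scaffold 45 (Ccrd_009434 to Ccrd_009488, 33 genes), which follows it, stood at -0.45 ± 0.07 (L1), -0.47 ± 0.05 (L18) and -0.51 ± 0.04 (L24). At the start of the run, scaffold 3 (Ccrd_009028 to Ccrd_009150, 68 genes) stood at -0.42 ± 0.00 (L1), -0.57 ± 0.05 (L18) and -0.48 ± 0.05 (L24), where L18 lay below L1 in every sample.

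Calmodulin (Ccrd_009411), a calcium sensor described with the abundant members, lies on scaffold 19. Of other genes there, chosen after their values were seen, Ccrd_009358, a J domain co-chaperone, stood at normalized counts (counts scaled by TMM to the mean library) of 1457, 1139 and 1213 in the WT samples, 461, 523 and 447 in those of L1, 750.1, 884 and 749 in those of L18 and 856, 670.1 and 716 in L24. Ccrd_009396, a homolog of the nucleotide exchange factor GrpE, stood at 348, 297 and 239 in the WT samples, 98.1, 126 and 81.4 in those of L1, 205, 148 and 195 in those of L18 and 180, 169 and 145 in L24. In both genes every L1 sample lay below every other sample, and L18 and L24 overlapped between L1 and WT. Ccrd_009383, with a domain of pectin methylesterase inhibitors, stood at 437, 262 and 205 in the WT samples, 13.6, 18.1 and 3.76 in those of L1, 246, 311 and 199.7 in those of L18 and 79.3, 13.3 and 32.8 in L24, low in L1 and L24 and overlapping WT in L18.

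A second group of scaffolds, Ccrd_009566 to Ccrd_009775, was also lower in L1 than in the other lines. The mean medians of scaffolds 335, 260, 288, 27, 455, 236 and 1548 ran from -0.83 to -1.13 in L1, from -0.28 to -0.64 in L18 and from -0.20 to -0.69 in L24. Toward the end of the run L18 lay above the other lines on several scaffolds. Scaffold 180 (Ccrd_010619 to Ccrd_010631) stood at -0.72 ± 0.04 (L1), -0.35 ± 0.14 (L18) and -0.85 ± 0.14 (L24), and scaffold 451 (Ccrd_010650 to Ccrd_010662) at -0.94 ± 0.05, -0.30 ± 0.18 and -1.03 ± 0.26. Scaffold 580 (Ccrd_010705 to Ccrd_010720) stood at -0.84 ± 0.09 (L1), -0.19 ± 0.09 (L18) and -0.78 ± 0.27 (L24). Of its 13 genes, 7 were lower in L1 than in L18 (18.5% of all genes of this level). L24 was lower than L18 at 7 (18.6% of all genes of this level). It is given as an example of L18 lying above, so nothing is read from these counts. In each of these 3 scaffolds every L18 sample lay above every sample of L1 and L24. Scaffold 1508 (Ccrd_010574 to Ccrd_010580, 6 genes) was otherwise, at -0.03 ± 0.06 (L1), -0.30 ± 0.11 (L18) and -0.14 ± 0.08 (L24), with every L18 sample below every L1 sample.

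A few scaffolds broke the pattern. Scaffold 408 (Ccrd_010105 to Ccrd_010112, 6 genes) had medians of 0.13 ± 0.03 (L1), 0.06 ± 0.20 (L18) and -0.02 ± 0.25 (L24), so that it was the only one of the 42 with a mean above 0 in L1. Scaffold 1175 (Ccrd_010032 to Ccrd_010036, 5 genes) stood at -0.92 ± 0.33 (L1), 0.39 ± 0.49 (L18) and 0.69 ± 0.31 (L24), the only mean above 0 in L24. In L18 the mean was also above 0 on scaffolds 1505 (0.25 ± 0.15) and 982 (0.18 ± 0.25), both near the end of the run. Scaffold 1039 (Ccrd_009529 to Ccrd_009536, 6 genes) was lowest in L18, at -0.98 ± 0.11 against -0.35 ± 0.24 in L1 and -0.26 ± 0.37 in L24.

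**Figure D4:**
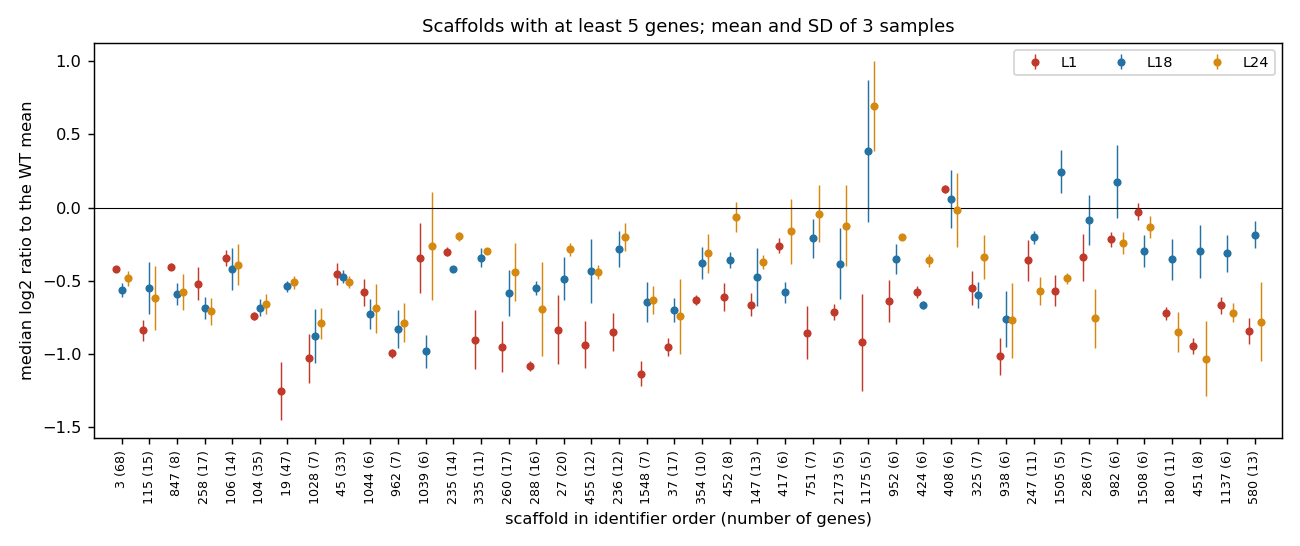
Median log2 ratio to the WT mean of the 42 scaffolds with at least 5 run genes of mean log2 CPM of 3 or more, in identifier order with the number of genes in parentheses; points and bars are the mean and SD of 3 samples per line. Scaffold 19 lies at -1.25 (L1), -0.54 (L18) and -0.51 (L24), and from scaffold 1505 to the right end L18 lies nearest to 0 except on scaffold 1508.

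In the means of L1, L18 and L24, strongly expressed and short members lay lower than weak and long ones, and genes outside the run sloped the same way. With the members cut into 3 equal sets of 275 by mean FPKM, the L1 median was -0.54 in the weakest set, -0.66 in the middle and -0.93 in the strongest, and genes outside the run between the same bounds stood at 0.18, 0.01 and -0.12. The difference between run and outside was -0.72, -0.67 and -0.81 in L1, -0.43, -0.43 and -0.51 in L18, and -0.50, -0.49 and -0.52 in L24. By exon length, L1 stood at -0.93 in the shortest set and -0.54 in the longest, against -0.15 and 0.16 outside, which left differences of -0.78 and -0.70. L18 replicate 2 had no such slope. It stood at -0.45, -0.33 and -0.42 from the weakest to the strongest set and at -0.06, -0.01 and 0.01 outside. Single WT samples sloped as well, and not all in the same direction. By exon length outside the run, WT replicate 1 went from 0.14 in the shortest set to -0.13 in the longest. WT replicate 2 went from -0.06 to 0.01 and WT replicate 3 from -0.11 to 0.09.

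Several of the most abundant members were lowered with the run. By the authors' FPKM in WT, the leading 5 were Ccrd_009486, Ccrd_009641, Ccrd_009411, Ccrd_009073 and Ccrd_010362. Ccrd_010362 (scaffold 5411, 19685 to 30477, - strand, 13 exons) is described as cardosin-E, one of the aspartic proteases for which cardoon flowers are used to clot milk. It stood at 19605, 20317 and 24399.5 normalized counts in WT and at 5549.6, 5469 and 5818 in L1. It stood at 11182, 8829.8 and 12097 in L18 and at 5791, 6276 and 5978 in L24. All line samples lay below WT, L18 lay between, and L1 and L24 overlapped; the log2 fold change was -0.83 ± 0.16 between L24 and L18 (edgeR, adjusted p = 0.00124) and -0.93 ± 0.16 between L1 and L18 (adjusted p = 0.000431, edgeR).

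The zinc/iron permease gene Ccrd_009641 (scaffold 288, 194804 to 197774, - strand, 2 exons), of a family that takes up metal ions, stood at 20998, 17955 and 14918 in the WT samples, 4303, 4108 and 4624 in those of L1, 9429.9, 11696 and 8835 in those of L18 and 8351, 5257 and 4861 in L24. The same order of the groups held for calmodulin (Ccrd_009411), at 10634, 9153 and 8774 in the WT samples, 3098, 3465 and 2575 in those of L1, 6849, 6447 and 5325 in those of L18 and 4086, 3775 and 4465 in L24. Both genes were lower in all 9 line samples than in WT, with L1 lowest and L18 highest among the line means. Ccrd_009486, with no description in the lists used here, fell in the same order from a WT mean of 1092 FPKM to 181 (L1), 598 (L18) and 383 (L24). Ccrd_009073, also without a description, went another way, as described with the genes called in opposite directions.

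Among members with a mean log2 CPM of 3 or more, 217 were called lower in every line with all line replicates below WT, as were 6.91% of all genes of that level, from which nothing is read since these contrasts chose the run, and 10 of these with the largest mean fall were taken by rule. Ccrd_010627 (scaffold 180, 208002 to 208593, - strand, 2 exons) encodes a protein with a NAC domain, the DNA-binding domain of a large plant family of transcription factors. It stood at normalized counts of 1871, 2334 and 1905 in the WT samples, 54.5, 64.3 and 28.8 in those of L1, 324, 479.6 and 353 in those of L18 and 50.8, 54.3 and 81.6 in L24. No line sample came near WT, and L18 lay above L1 and L24, which overlapped. Its log2 fold changes against WT were -5.33 ± 0.28 (L1), -2.40 ± 0.24 (L18) and -5.03 ± 0.28 (L24), and its log2 fold change was -2.93 ± 0.26 between L1 and L18 (edgeR, adjusted p = 2.77e-06).

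Ccrd_009725 (scaffold 3441, 11791 to 14903, + strand, 3 exons) encodes a cytochrome P450, an oxidase family of plant secondary metabolism and hormone turnover. It stood at 2514, 2084 and 2986 in the WT samples, 10, 29.6 and 5.01 in those of L1, 726, 1349 and 1032 in those of L18 and 168, 104 and 180.1 in L24. The 4 groups did not overlap at any sample, in the order WT, L18, L24 and L1. L1 had a log2 fold change of -3.20 ± 0.42 against L24 (edgeR, adjusted p = 0.000135) and L24 one of -2.78 ± 0.34 against L18 (adjusted p = 4.7e-05, edgeR).

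The copper transporter gene Ccrd_009702 (scaffold 27, 739976 to 740458, - strand, 1 exon) stood at 3545, 4481 and 4392 in the WT samples, 184, 181 and 264 in those of L1, 899, 1539 and 479 in those of L18 and 122, 164 and 66.7 in L24. Its L18 samples spread widely, while L1 and L24 were low in every sample. Ferritin (Ccrd_010194), the iron storage protein, stood at 3909.6, 7666 and 8701 in the WT samples, 2241, 2101 and 2674 in those of L1, 3192, 2017 and 614 in those of L18 and 283, 640.2 and 538 in L24. L24 had the lowest mean and overlapped L18 at 1 sample, at -2.0 ± 0.47 against L18 (edgeR, adjusted p = 0.00573) and 2.26 ± 0.48 for L1 against L24 (adjusted p = 0.00419, edgeR). The call of Ccrd_010194 in L1 against WT was lost without WT replicate 3, without L1 replicate 1 and without L1 replicate 2.

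The other genes of this group were Ccrd_009307, Ccrd_009521 and Ccrd_010576, which lack a description, Ccrd_009779 (described as adenosinetriphosphatase), Ccrd_009859 (a chloramphenicol acetyltransferase-like domain, as in acyltransferases) and Ccrd_010177 (a mannose-binding lectin). Their log2 fold changes against WT ran from -3.96 (Ccrd_009859) to -0.80 (Ccrd_009521) in L1. They ran from -4.10 (Ccrd_009307) to -1.31 (Ccrd_009859) in L18 and from -4.51 (Ccrd_009521) to -2.39 (Ccrd_010177) in L24. Ccrd_009521 stood at 401, 427 and 358 in the WT samples, 209.9, 193 and 281 in those of L1, 74.5, 75.7 and 61.5 in those of L18 and 18.3, 15.5 and 18 in L24, with no overlap between any groups. Ccrd_009521 overlaps Ccrd_009522 on the opposite strand, and whether reads were counted by strand is not given in the sources used here, so its reads cannot be told apart from those of its partner. In all, 120 of the 1262 tested members share bases with another member.

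Against this background, 147 members were called higher than WT in at least 1 line (30.8% of all genes), spread over 93 scaffolds. L1 alone was higher at 22 (6.06% of all genes), L18 alone at 30 (4.01% of all genes) and L24 alone at 48 (5.43% of all genes). L1 and L24 together were higher at 20 (6.78% of all genes), L18 and L24 at 10 (2.05% of all genes), L1 and L18 at 3 (1.43% of all genes) and all lines at 14. Nothing is read from these counts, since the same contrasts chose the run. Of the 147, 87 had a mean log2 CPM of 3 or more and 60 lay below it. Only 6 of the 14 were at that level, and in each of these 6 every line sample lay above every WT sample, as in 4.84% of all genes of that level. These 6 lay on 6 different scaffolds.

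The largest rise among these 6 was at Ccrd_010523 (scaffold 286, 216809 to 218826, + strand, 5 exons), whose product has the domain of FMN-dependent oxidoreductases of the old yellow enzyme family, to which the plant 12-oxophytodienoate reductases of jasmonate synthesis belong. It stood at normalized counts of 6.13, 17.8 and 12.8 in the WT samples, 353, 469 and 459.6 in those of L1, 757, 846 and 406 in those of L18 and 941, 1184 and 1102 in L24. The groups did not overlap between WT and the lines, and L24 lay above L1 in every sample. Its log2 fold changes against WT were 5.07 ± 0.35 (L1), 5.72 ± 0.35 (L18) and 6.41 ± 0.35 (L24), and L1 had a log2 fold change of -1.33 ± 0.25 against L24 (edgeR, adjusted p = 0.00198). Of the 6 members beside it on scaffold 286, 3 were called lower in L1 (median -0.39), 1 lower and 1 higher in L18 (median -0.15) and 4 lower in L24 (median -0.89), with no other call against WT.

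Ccrd_009752 (scaffold 236, 91614 to 95056, - strand, 6 exons) encodes an auxin efflux carrier component, a membrane protein that moves auxin out of cells. It stood at 57.6, 55.2 and 32.1 in the WT samples, 194, 219 and 148 in those of L1, 279, 344 and 263 in those of L18 and 1852, 1308 and 1313 in L24. No 2 groups overlapped, in the order WT, L1, L18 and L24. The log2 fold change was 2.34 ± 0.22 between L24 and L18 (edgeR, adjusted p = 5.35e-06) and -2.99 ± 0.22 between L1 and L24 (adjusted p = 1.92e-06, edgeR). Of its 6 neighbours on scaffold 236, 5 were called lower in L1 (median -1.13), 3 in L18 and 2 in L24, and none was called higher in any line.

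Ccrd_009711 (scaffold 986, 112063 to 116101, - strand, 1 exon), described as a cation transporter, stood at 56.4, 81.9 and 110.2 in the WT samples, 873, 1081 and 885 in those of L1, 1669, 1137 and 1375 in those of L18 and 173, 193 and 242 in L24. No 2 groups overlapped, in the order WT, L24, L1 and L18. Its log2 fold changes against WT were 3.51 ± 0.24 (L1), 4.06 ± 0.24 (L18) and 1.28 ± 0.23 (L24), and L24 had a log2 fold change of -2.78 ± 0.22 against L18 (edgeR, adjusted p = 1.73e-06). Of its 3 neighbours, 2 were lower in L1 (median -0.93), 1 in L18 (median -0.56), and 1 lower and 1 higher in L24 (median 0.54). Ccrd_009555 (scaffold 235, 261716 to 266173, - strand, 5 exons), of the concanavalin A-like lectin and glucanase superfamily, stood at 25.8, 31.6 and 19.3 in the WT samples, 105, 78 and 185 in those of L1, 109, 299 and 408 in those of L18 and 199, 158 and 161 in L24. All line samples lay above WT, and L1, L18 and L24 overlapped one another. Of its 6 neighbours, 2 were lower in L1 (median -0.30), 1 in L18 (median -0.40), and 2 lower and 1 higher in L24 (median -0.31).

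The remaining pair had smaller changes and no description. Ccrd_009363 (scaffold 19, 533361 to 538008, - strand, 7 exons) stood at 128, 96.7 and 86.6 in the WT samples, 191, 189 and 264 in those of L1, 163, 190.4 and 195 in those of L18 and 224, 196 and 209.7 in L24, with the 3 lines at about the same level above WT. It lies on scaffold 19, where all 6 of its neighbours were called lower in L1 (median -1.33), 4 in L18 (median -0.62) and 5 in L24 (median -0.62). Ccrd_010035 (scaffold 1175, 120241 to 122017, + strand, 2 exons) stood at 299, 283 and 305 in the WT samples, 445, 503 and 397 in those of L1, 519, 383 and 623 in those of L18 and 523, 630.2 and 683 in L24. All line samples lay above WT, L18 overlapped both other lines, and it was 1 of the 5 genes of scaffold 1175. Of the other 4, 3 were lower in L1 (median -0.96), none was called in L18 (median 0.26), and 2 were lower and 2 higher in L24 (median 0.11). The call of Ccrd_010035 in L1 was lost without WT replicate 2 and without L1 replicate 2, at log2 fold changes of 0.57 and 0.51.

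**Figure D5:**
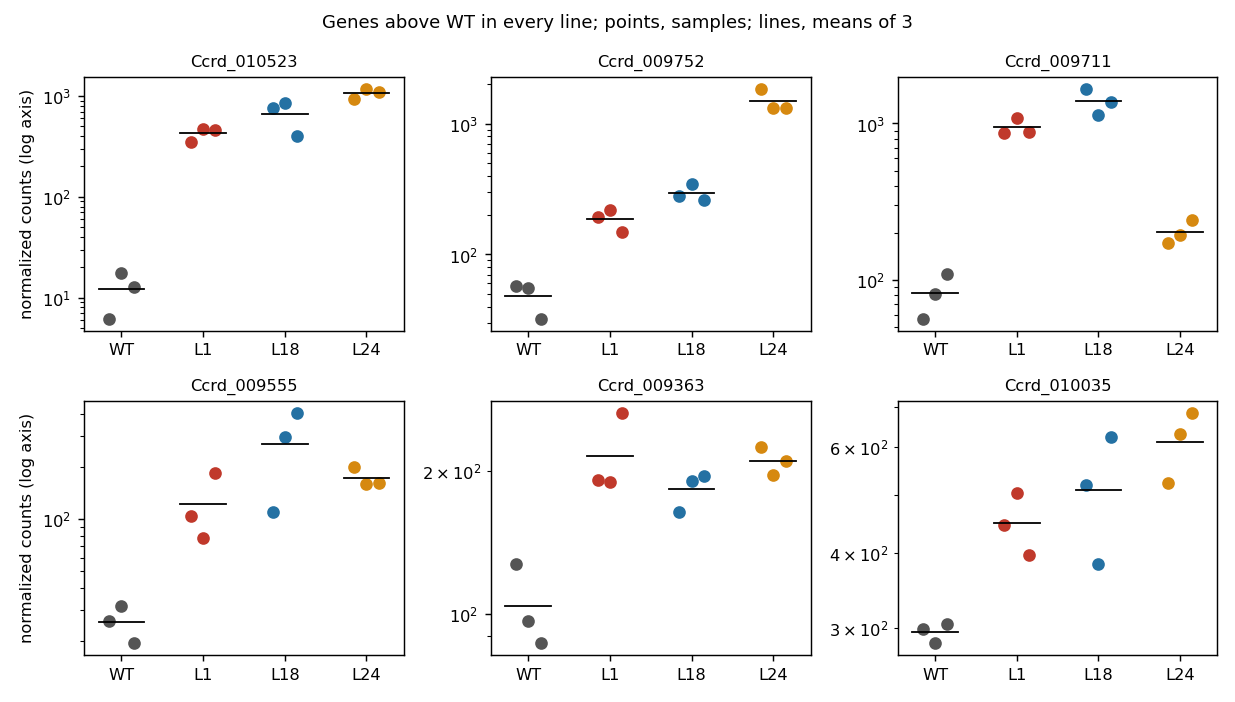
Normalized counts (log axes) of the 6 run genes of mean log2 CPM of 3 or more that were called higher than WT in all lines, with a point for each sample and a line for the mean of 3. In every panel the 9 line samples lie above the 3 WT samples, and the order of the lines differs from gene to gene.

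The other 8 members higher in all lines were weakly expressed, and are named here after their values were seen. Ccrd_009830, with the helix-loop-helix domain of Myc-type transcription factors, stood at normalized counts of 7.36, 14.8 and 9.63 in the WT samples, 33.6, 40.4 and 48.8 in those of L1, 33.2, 12.6 and 57.7 in those of L18 and 156, 137 and 259.5 in L24. L24 was the highest in every sample, and L18 overlapped WT. Ccrd_010675, with a domain of UDP-dependent glycosyltransferases, stood at 7.36, 14.8 and 15 in the WT samples, 86.3, 91.7 and 86.4 in those of L1, 92.4, 115 and 101 in those of L18 and 59, 21 and 40.3 in L24, with all line samples above WT. The others were Ccrd_010065, Ccrd_010374, Ccrd_009858, Ccrd_010452, Ccrd_010150 and Ccrd_009477, with WT means of 4.76, 2.22, 2.24, 2.62, 3.39 and 7.77 normalized counts. Ccrd_010065 had means of 51.5 (L1), 15.6 (L18) and 148 (L24).

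At 49 members (3.88% of 1262, against 2.79% of all genes) lines were called in opposite directions against WT. Ccrd_009203 (scaffold 847, 62893 to 64473, + strand, 1 exon) has the domain of the major facilitator superfamily of membrane transporters. It stood at normalized counts of 7.36, 28.6 and 16 in the WT samples, 0, 0 and 2.50 in those of L1, 1098, 373 and 308 in those of L18 and 1.02, 0 and 3.18 in L24. L18 was high in every sample, WT was low, and L1 and L24 were at or under 3.18 normalized counts in every sample. Because L1 and L24 had so few counts no fold change is given; edgeR's quasi-likelihood test called L18 above L1 (adjusted p = 2.66e-06) and above L24 (adjusted p = 5e-06). Its call below WT in L24 was lost without WT replicate 2 and without L24 replicate 2.

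Ccrd_009326 (scaffold 104, 407103 to 410077, + strand, 9 exons) encodes an inositol oxygenase, which opens the inositol ring on a route to cell wall sugars. It stood at 60.1, 72 and 86.6 in the WT samples, 153, 147 and 230.4 in those of L1, 21.5, 43.1 and 27.4 in those of L18 and 361, 353 and 376 in L24. L24 was the highest and L18 the lowest in every sample, and L1 and WT lay between without overlap. L24 exceeded L18 by 3.57 ± 0.27 on the log2 scale (edgeR, adjusted p = 1.19e-06). The hexosyltransferase gene Ccrd_010264 (scaffold 587, 151199 to 158167, + strand, 2 exons) showed the same opposition, at 66.2, 121 and 113 in the WT samples, 256, 265 and 279 in those of L1, 15.3, 40 and 47.3 in those of L18 and 226, 387 and 224 in L24. L1 and L24 overlapped above WT and L18 lay below WT in every sample; L24 exceeded L18 by 3.03 ± 0.36 on the log2 scale (edgeR, adjusted p = 3.41e-05).

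Ccrd_009073 (scaffold 3, 904986 to 905850, + strand, 3 exons), one of the most abundant members, stood at 7584, 5609.8 and 4971 in the WT samples, 12278, 11002 and 16044 in those of L1, 1567, 1059 and 1753 in those of L18 and 7758, 7098 and 6793 in L24. L1 was highest, L18 lowest and L24 overlapped WT, and L1 exceeded L18 by 3.17 ± 0.23 on the log2 scale (edgeR, adjusted p = 7.05e-07). Ccrd_009187 (scaffold 115, 416933 to 418474, - strand, 1 exon) followed it, at 462, 596 and 556 in the WT samples, 725, 771 and 1360 in those of L1, 70, 104 and 82.3 in those of L18 and 717, 568 and 566 in L24, again with L1 highest, L18 lowest and L24 overlapping WT, and a difference between L1 and L18 of 3.48 ± 0.26 (adjusted p = 7.05e-07, edgeR). The call of Ccrd_009187 above WT in L1 was lost without L1 replicate 3. Neither gene has a description in the lists used here.

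Further genes separated the lines without opposite calls against WT. The expansin gene Ccrd_009630 (scaffold 288, 50767 to 52031, - strand, 3 exons), of a family of proteins that loosen cell walls, stood at 5445, 1179.6 and 740.3 in the WT samples, 102, 116 and 76.4 in those of L1, 3403, 9275 and 8319.8 in those of L18 and 2809, 1128 and 1222 in L24. L1 was low in every sample, while WT spread widely and overlapped both other lines. L1 had a log2 fold change of -6.14 ± 0.75 against L18 (edgeR, adjusted p = 3.42e-05) and of -4.12 ± 0.69 against L24 (adjusted p = 0.000909, edgeR).

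Ccrd_009491 (scaffold 5600, 871 to 1707, + strand, 2 exons), described as a glucose/ribitol dehydrogenase of the short-chain dehydrogenase family, stood at 57.6, 26.6 and 97.3 in the WT samples, 2028, 1608 and 3835 in those of L1, 319, 12.6 and 394 in those of L18 and 2832, 2244 and 2281 in L24. L1 and L24 were high in every sample and overlapped, and L18 spread from under the lowest to over the highest WT sample. L24 exceeded L18 by 3.33 ± 0.71 on the log2 scale (edgeR, adjusted p = 0.00287). The last member, Ccrd_010721 (scaffold 5864, 2593 to 9834, + strand, 6 exons), encodes an oligopeptide transporter of the OPT superfamily and stood at 169, 149 and 206 in the WT samples, 368, 435 and 377 in those of L1, 1543, 1679.7 and 1663 in those of L18 and 179, 129.6 and 142 in L24. L18 was the highest, L1 came next, and L24 overlapped WT; L24 had a log2 fold change of -3.44 ± 0.17 against L18 (edgeR, adjusted p = 4.66e-08).

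Ccrd_009826 (scaffold 37, 351010 to 351943, - strand, 3 exons), without a description, stood at 2379, 2952 and 2967 in the WT samples, 822, 727 and 3003 in those of L1, 148, 87.3 and 129 in those of L18 and 565, 1352 and 783 in L24. L18 was the lowest in every sample, and 1 L1 sample stood at the WT level while the other two were lower. Ccrd_009977 (scaffold 2311, 29236 to 29544, - strand, 1 exon) stood at 224, 199 and 167 in the WT samples, 279, 339 and 291 in those of L1, 155, 261 and 192 in those of L18 and 56.9, 36.6 and 73.1 in L24, with L24 the lowest in every sample and 2.44 ± 0.26 between L1 and L24 (edgeR, adjusted p = 2.21e-05). It was the exception here, with opposite calls against WT in L1 and L24, and its call in L1 was lost under 12 alternatives.

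Gene descriptions were at hand only for 324 members, all of them DEGs of L1, of which 210 had a description other than uncharacterized. They were listed for their difference between L1 and WT, the L1 samples also enter each contrast between L1 and another line, and the WT samples each contrast with WT, so every count and median below is a description. As the base for them, 176 of the 210 were called lower in L1 here, and of these 58.5% were lower in L18 (median -0.77), 78.4% lower in L24 (median -1.05), 69.9% lower in L1 than in L18 and 45.5% lower in L1 than in L24. A further 26 were called higher in L1, of which 30.8% were higher in L18 and 61.5% in L24, and 8 were not called in L1. Over the whole table, of the 4085 genes lower in L1, 37.5% were lower in L18 and 65.5% in L24, and of the 3861 genes higher in L1, 33.4% were higher in L18 and 61.1% in L24. Medians are log2 fold changes against WT, beside medians of -0.44 in L18 and -0.45 in L24 over all tested members and of 0.01 in both lines over all genes. The genes named from these lists, apart from those the rules took, were chosen after their values were seen. All 9 genes described by ribosomal protein words (among them Ccrd_009150, 40S protein S24, and Ccrd_009323, 40S protein S30) were lower in L1, 8 in L18 (median -0.77) and 7 in L24 (median -0.88), and 7 were lower in L1 than in L18. Of 7 ubiquitin and proteasome genes, which mark and degrade proteins, all were lower in L1, while L18 was lower at 5 and L24 at 6. Of 6 heat shock and chaperone genes, 5 were lower and 1 higher in L1, 6 were lower in L18, and 5 were lower and 1 higher in L24, the exception being the small heat shock gene Ccrd_009653 with 1.56 (L1), -1.20 (L18) and 0.86 (L24).

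Respiratory chain genes included 4 lower and 2 higher in L1, and 3 lower in each of L18 and L24. The pair that was higher in L1 (Ccrd_009667 and Ccrd_010223) is described as cytochrome c oxidase subunit 1, which plants encode in the mitochondrial genome, so that reads may be shared with near-identical copies and their values are uncertain. Of 8 protein kinase genes, 7 were lower and 1 higher in L1, 4 lower in L18 and 5 lower in L24. Both histone genes were lower in L1 and in L18 and 1 was lower in L24.

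Of 8 auxin-related genes, 7 were lower and 1 higher in L1, 1 lower and 1 higher in L18, and 6 lower and 1 higher in L24. All 8 were lower in L1 than in L18 (median -2.22) and 5 lower in L1 than in L24, and the efflux carrier Ccrd_009752 was the one that rose. Ccrd_009557, an early auxin-responsive gene of the SAUR family, stood at normalized counts of 389, 112 and 106 in the WT samples, 20.9, 13.7 and 15 in those of L1, 144, 287 and 282 in those of L18 and 122, 54.3 and 57.2 in L24. L18 lay within the WT range, L24 reached its lower end at 1 sample, and L1 lay below every other sample. Ccrd_010004, described as an auxin-responsive protein, had means of 321 (WT), 5.19 (L1), 104 (L18) and 20.4 (L24).

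Transcription factor genes were mixed. Of 12, 7 were lower and 5 higher in L1, 6 lower and 1 higher in L18, and 7 lower and 2 higher in L24. Ccrd_009017, with a homeobox domain, stood at 208, 188 and 188 in the WT samples, 367, 311 and 676 in those of L1, 89.7, 61 and 80.4 in those of L18 and 137, 124 and 73.1 in L24, above WT in every L1 sample and below it in every L18 and L24 sample. Of 5 cell wall genes, 5 were lower in L1, 2 lower and 1 higher in L18, and 3 lower and 1 higher in L24. The endoglucanase gene Ccrd_009075, of the enzymes that cut cellulose-like glucans, was the exception, with means of 12.2 (WT), 1.45 (L1), 114 (L18) and 41.6 (L24).

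Among genes of secondary metabolism, 4 cytochrome P450 genes were all lower in L1, and L18 and L24 were lower at 3 each. Of these, Ccrd_009726 lies next to Ccrd_009725 by number and had no count in L1. Of 8 glycosyltransferase genes, 6 were lower and 2 higher in L1, 2 lower and 1 higher in L18, and 3 lower and 2 higher in L24. All 3 glutathione S-transferase genes were lower in L1, and L18 and L24 were lower at 2 each. All 3 mannose-binding and jacalin lectin genes were lower in L1 and L18 and 2 of them were lower in L24. Both fatty acid desaturase genes were higher in L1, none in L18 and 1 in L24, where the type 1 gene Ccrd_009530, of a class of enzymes that add double bonds to fatty acids, stood at 72.4, 3.95 and 24.6 in the WT samples, 213, 181 and 354 in those of L1, 37.7, 21 and 40.7 in those of L18 and 185, 315 and 197 in L24. It was high in all samples of L1 and L24, and L18 lay within the WT range. The aspartic protease list held cardosin-E alone, lower in all lines.

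The count totals of the samples ran from 12505275 to 19509803, and the TMM factors ran from 0.854 to 1.10. No list of genes that define callus was at hand. The summed FPKM of 17 genes described by chlorophyll-binding, Rubisco small chain or photosystem words, markers of green leaf, ran from 119 to 160.1 in WT, from 281 to 305 in L1, from 283 to 329 in L18 and from 77.2 to 107 in L24. Their descriptions came from the list of DEGs of L1, so a difference between L1 and WT was built into the choice of these genes. The sum was also high in L18 and low in L24, and the part of these genes in the lowering was not tested.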

How the data were processed

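RNA of 12 callus samples (WT, L1, L18 and L24, 3 replicates each) was sequenced. According to the study's methods, the authors trimmed reads with BBDuk (minimum length 35, quality 35) and aligned them with STAR to the genome CcrdV1. The counter, its handling of strand and the order of scaffolds along chromosomes are not given in the sources used here. The deposited table holds raw counts per gene for each sample, with scaffold positions and the exon length of each gene in bases, another column the authors supplied. The authors also deposited FPKM values, and these equalled values recomputed from the counts and exon lengths at all 251286 values (largest relative difference 5.33e-15).

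Here, genes were filtered by a re-written HTSFilter rule (threshold 10.5 normalized counts, 20024 genes kept), scaled by TMM over all genes and tested with edgeR 4.0.16 in R 4.3.3 by the quasi-likelihood F test in 1 fit over all samples, with Benjamini-Hochberg adjustment over the genes tested and calls at 0.05 or less. Standard errors are the log2 fold change divided by the root of F. Totals ran from 12505275 to 19509803 counts, which limits precision for genes of few counts. Alternatives used limma 3.58.1, DESeq2 1.42.0, other filters and scalings, the replicate block and each sample left out. The sample titles number the replicates within each group. Headers of the count columns carry other numbers, which differ between all samples and do not follow the replicate order in L18. What these header numbers stand for is not given. Deviations of same-numbered WT and L24 samples had r of 0.46, 0.14 and 0.18. At replicate 3, r was 0.24 for WT with L18 and 0.29 for L18 with L24. Whether the replicate numbers pair samples is not settled by these values, so the block was used only as an alternative. Figures were drawn with matplotlib 3.10.9. The steps were tested on simulated data.

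Genes were named by rule among members with a mean log2 CPM of 3 or more. The rule took the 12 with the largest rise in all lines (6 qualified) and the 10 with the largest fall in all lines, without overlap with WT in any replicate. It took for each pair of lines the 2 higher and 2 lower genes with the largest difference, the 5 largest differences among genes called with opposite signs, and the 5 with the highest FPKM in WT. Examples from the lists by description were also allowed. The run, its members and the lists were chosen with earlier results of these data known. Gene descriptions came from a supplementary list of DEGs, of which only names were used. No sequences are shown.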

Additional observations from a re-analysis of the deposited data

Results flagged for a closer look

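Listed here are 16 contrasts between lines at 12 named genes. These genes were taken by rule for a large called difference in the same contrast or for opposite calls against WT. That they are called is therefore built into the choice, and nothing is read from it. Each value is a log2 fold change with its adjusted p from the quasi-likelihood test of edgeR, adjusted by Benjamini-Hochberg. L1 differed from L18 at Ccrd_009826 (3.63, adjusted p = 9.89e-05), Ccrd_009187 (3.48, adjusted p = 7.05e-07), Ccrd_009630 (-6.14, adjusted p = 3.42e-05) and Ccrd_009326 (2.53, adjusted p = 9.98e-06), all by edgeR. By the same edgeR test L1 differed from L18 at Ccrd_009073 (3.17, adjusted p = 7.05e-07) and Ccrd_010264 (2.97, adjusted p = 2.89e-05). L1 differed from L24 at Ccrd_009725 (-3.2, adjusted p = 0.000135), Ccrd_009521 (3.7, adjusted p = 7.64e-07), Ccrd_009630 (-4.12, adjusted p = 0.000909) and Ccrd_009977 (2.44, adjusted p = 2.21e-05), by edgeR. L24 differed from L18 at Ccrd_009326 (3.57, adjusted p = 1.19e-06), Ccrd_009491 (3.33, adjusted p = 0.00287), Ccrd_010721 (-3.44, adjusted p = 4.66e-08) and Ccrd_010264 (3.03, adjusted p = 3.41e-05), by edgeR. At Ccrd_009203 the fitted values were -9.65 for L1 against L18 (adjusted p = 2.66e-06, edgeR) and -8.59 for L24 against L18 (adjusted p = 5e-06, edgeR). These fitted values depend on the prior count, since L1 and L24 had almost no counts, and are no measure of size.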

How the results depend on the processing

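Under alternatives, 334 counts of called members stayed within 1.5 times the value reported and 4 did not. Exceptions came from leaving out 1 sample. Members higher in L18 than in WT ranged from 37 (without WT replicate 2) to 60, members lower in L1 than in L24 from 181 (without L24 replicate 3; 182 without L1 replicate 1) to 304, and members higher in all lines from 9 (without WT replicate 2) to 15. The median log2 ratio of the run became -0.80 (L1), -0.50 (L18) and -0.57 (L24) at a minimum mean log2 CPM of 5, and -0.66 in L1 and -0.40 in L18 with 2 CPM added. It became -0.63, -0.36 and -0.35 on deposited FPKM with 0.1 added, and -0.45 in L18 with TMM from genes outside the run. Without the 10 genes with the most reads, the members' share was 5.78% (WT), 3.65% (L1), 4.48% (L18) and 4.40% (L24). Values of named genes kept their side of the threshold in 3418 alternatives and lost the call in 110, and none changed sign. The cause of these changes was not tested. Deviations of same-numbered samples correlated above 0.1 in 6 of 18 pairs (r from -0.34 to 0.46), which for WT and L24 were all 3 pairs. With the replicate number as a block, 677 members were lower in L1, 408 in L18 and 505 in L24 than in WT, 373 were lower in L1 than in L18 and 247 than in L24, and 194 were lower in L24 than in L18. With WT and L24 alone and the replicate block, added after seeing the data, 613 members were lower and 130 higher in L24, within 1.5 times the 517 and 92 reported. Depth limits the 437 tested members below a mean log2 CPM of 3. Bulk samples of 1 culture per group limit every comparison, both with WT and between lines.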
